A study of Mus musculus with 9 samples.

Results

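The 9 transcripts followed here across the forelimb bud were those of the distal-less homeobox genes Dlx1, Dlx2, Dlx3, Dlx5 and Dlx6, the zinc finger genes Sp6 and Sp8, the basic helix-loop-helix gene Bhlha9, and Dync1i1. They were found by symbol, 9 of 32289 features, and each symbol named 1 row in all 9 libraries. The data were 3′ single-cell RNA-seq libraries of mouse forelimb buds at E10.75 (37 to 39 somites), each made from the forelimb bud pair of 1 embryo of either sex on a Swiss Albino background. There were 3 wild-type (Wt) libraries, 3 E1C8Δ/Δ (EC1CRM8Δ/Δ) libraries and 3 E1C5Δ/Δ (EC1CRM5Δ/Δ) libraries. Both mutant alleles are germline deletions that share the homozygous loss of EC1, an enhancer cluster of the landscape of Grem1, a secreted BMP antagonist. The first also lacks CRM8, a conserved element of open chromatin for which the study's methods state no clear enhancer activity in limb bud reporter tests, and which was removed by Cas9 in zygotes already homozygous for the EC1 deletion, and the second also lacks the enhancer CRM5. No agent was applied to any group. Libraries held 26620760 to 500559729 unique molecular identifiers (UMIs, counted RNA molecules) in 2571 to 28480 barcodes, and E1C8Δ/Δ replicate 1 was the smallest. The 3 Wt embryos were male and 2 of the 3 embryos of each mutant were female, so sex and genotype were partly confounded. Xist, the transcript of the inactive X chromosome, was at 22.7 CPM in Wt replicate 1 and 7.65 CPM in the male E1C8Δ/Δ replicate 3, against at most 0.0850 CPM in the other males and 686 to 974 CPM in the female libraries. Y-linked genes summed to 3.54 CPM in the female E1C8Δ/Δ replicate 1, against 105 to 151 CPM in males and at most 0.0455 CPM in the other females. Whether these reads are free RNA or cells of another embryo was not tested. Levels are given as CPM, counts per 1000000, the UMIs of a gene scaled to that number of UMIs over all the cells in a group.

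The apical ectodermal ridge is the thickened epithelium along the limb bud rim that keeps the underlying mesenchyme growing, mainly by secreting FGFs such as FGF8. Sp6 and Sp8 act in limb ectoderm downstream of WNT and β-catenin signalling and are required for Fgf8 expression, and Dlx genes lie further along the same network. Dlx genes sit as convergently transcribed pairs, and loss of Dlx5 together with Dlx6 disrupts the ridge and causes a split hand or foot. Dync1i1 encodes an intermediate chain of the motor protein dynein and is listed here because exons of the gene hold limb enhancers of Dlx5 and Dlx6. Duplications of the human Bhlha9 orthologue accompany limb malformations.

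In the annotation of GRCm38 (mm10; GENCODE M21), Dlx1 lay on chromosome 2 at 71528113 to 71533981 on the plus strand and Dlx2 at 71543408 to 71546754 on the minus strand. Dync1i1 at 5725639 to 6028039, Dlx6 at 6863334 to 6868568 and Dlx5 at 6877805 to 6882085 lay on chromosome 6. Bhlha9 at 76672470 to 76673676, Dlx3 at 95120119 to 95125296 and Sp6 at 97013394 to 97024734 lay on chromosome 11, and Sp8 at 118846329 to 118852576 lay on chromosome 12. Antisense genes overlap 2 members, Dlx1as with Dlx1 and Dlx6os1 with Dlx6, and reads of the pairs can be told apart only as far as the counting used strand. The 250 bases before the annotated start are shown for 2 members that lay on opposite sides of the ridge comparison below: Dlx2, higher in the ridge, and Bhlha9, lower in it. Capitals mark the letters CANNTG, the E-box core to which basic helix-loop-helix proteins can bind. It was searched on both strands, is its own reverse complement, and is present in 66.2% of 32817 mouse promoter windows of this length (RefSeq, GRCm38.p6).
Dlx2, chr2:71546755-71547004, minus strand: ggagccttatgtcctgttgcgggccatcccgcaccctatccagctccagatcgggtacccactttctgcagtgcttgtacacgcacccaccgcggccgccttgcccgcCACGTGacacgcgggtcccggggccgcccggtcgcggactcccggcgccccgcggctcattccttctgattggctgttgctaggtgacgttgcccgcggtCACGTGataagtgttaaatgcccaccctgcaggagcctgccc
Bhlha9, chr11:76672220-76672469, plus strand: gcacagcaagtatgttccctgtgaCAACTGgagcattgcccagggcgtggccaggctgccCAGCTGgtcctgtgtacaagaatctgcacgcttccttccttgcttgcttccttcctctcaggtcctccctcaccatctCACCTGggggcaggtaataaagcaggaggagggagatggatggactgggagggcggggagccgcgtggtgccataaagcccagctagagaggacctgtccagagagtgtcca
The Dlx2 window held 2 matches and the Bhlha9 window 3, a description of letters and not of binding.

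Cells were grouped by markers that include none of the 9 genes. An ectoderm cell had UMIs of at least 5 of 14 epithelial markers and little mesenchymal RNA, and a ridge cell was an ectoderm cell with at least 3 Fgf8 UMIs. This gave 58 ridge cells, between 1 and 15 per library, and 397 other ectoderm cells without an Fgf8 UMI. Of 34285 mesenchymal cells, the fifth with the highest and the fifth with the lowest distal minus proximal score in each library formed the distal (6854 cells) and the proximal (6861 cells) gate. The score at the limit of the distal gate was 0.643, 0.453 and 0.437 in Wt, 0.263, 0.203 and 0.225 in E1C8Δ/Δ, and 0.214, 0.373 and 0.432 in E1C5Δ/Δ. Every mutant limit was thus below every Wt limit, and genotypes are compared at an equal share of cells and not at an equal score. Of the ridge genes fixed as a check of the label, Rspo2, a ridge-derived WNT potentiator, had a UMI in 72.4% of ridge cells and 3.53% of other ectoderm cells. Fgf4 had one in 20.7% and 0%, and the adhesion receptor Cd44 in 29 of 58 cells and 4.53%. Fgf9, Fgf17 and Jag2, fixed for the same check, are not reported here. Nor are Wnt7a, En1, Krt15 and Krt5, fixed as a check of the ectoderm outside the ridge. Mesenchymal RNA was present in both: the 6 mesenchymal markers summed to 130 to 272 CPM in ridge cells, 51.1 to 207 CPM in other ectoderm and 1398 to 1869 CPM in distal mesenchyme. Of these markers, Pdgfra had a UMI in 79.3% of ridge cells and 16.1% of other ectoderm cells, whereas Prrx1 had one in 37.9% and 46.6% and Tbx5 in 5.17% and 12.6%. The part of that RNA in the results below was not tested. The 3 libraries with E1C5Δ/Δ genotype held 7 ridge cells together, so that ridge values of this genotype are from 1 to 3 cells per library.

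All 9 genes were detected in ridge cells. Dlx1, Dlx2, Dlx5, Dlx6, Sp6 and Sp8 were highest in ridge cells, Bhlha9 was highest in ectoderm outside the ridge, and Dlx3 was at like levels in both. Dync1i1 was at overlapping levels in distal mesenchyme and in the ridge, where some libraries held very few of its UMIs, and was far lower elsewhere. Outside ectoderm, mesenchyme and muscle progenitors, the genes were at or near background, with pooled levels of 0.122 to 0.271 CPM in 2104 erythroid cells, which should express none of them.

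**Figure D1:**
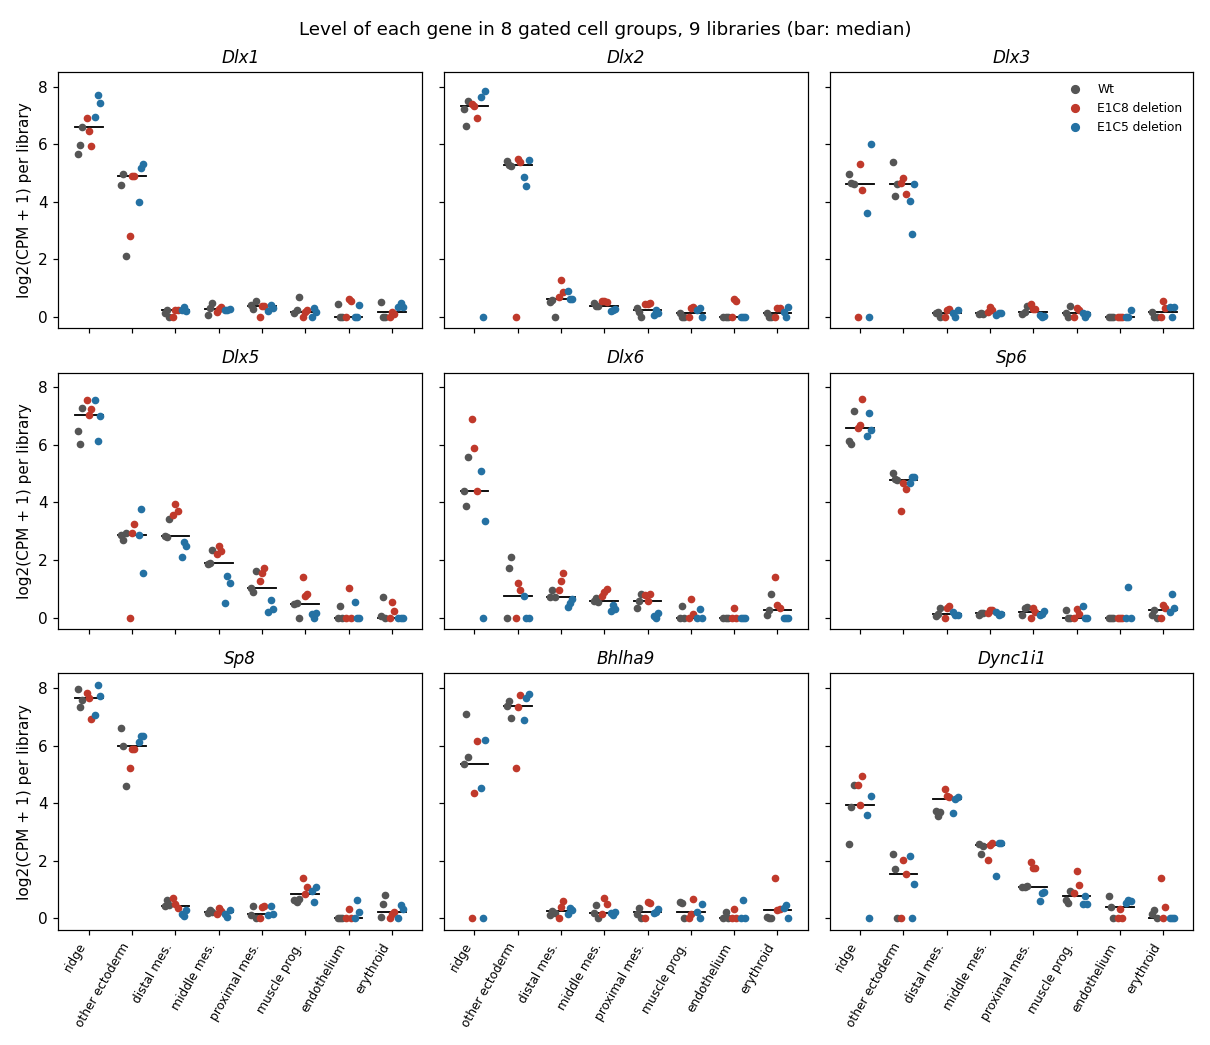
Level of each gene, as log2(CPM + 1), in 8 gated cell groups on the x axis, 1 point per library coloured by genotype and a bar at the median of the 9 libraries. Ridge points stand highest for Dlx1, Dlx2, Dlx5, Dlx6, Sp6 and Sp8, other ectoderm stands highest for Bhlha9, and Dlx5 and Dync1i1 also rise above the other genes in distal mesenchyme.

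Within the ectoderm, the Dlx2 level in ridge cells was 149, 97.3 and 178 CPM in the Wt libraries, 166, 159 and 120 CPM in E1C8Δ/Δ, and 200, 0 and 228 CPM in E1C5Δ/Δ. In other ectoderm of the same 9 libraries the Dlx2 level was 0 to 44.2 CPM, with a median of 37.4 CPM. Only the E1C5Δ/Δ library with 1 ridge cell broke the order, and the other 8 libraries had more Dlx2 in the ridge.
Dlx1, its partner gene, was at 49.7, 61.5 and 94.7 CPM in Wt ridge cells, 118, 86.7 and 60.1 CPM in E1C8Δ/Δ, and 122, 206 and 173 CPM in E1C5Δ/Δ. Other ectoderm held 3.34 to 38.7 CPM of Dlx1, so that the gates did not overlap over the 9 libraries.
Dlx5 was at 89.5, 64.9 and 154 CPM in Wt ridge cells, 189, 130 and 150 CPM in E1C8Δ/Δ, and 189, 68.5 and 128 CPM in E1C5Δ/Δ. In other ectoderm Dlx5 was at 0 to 12.8 CPM, again without overlap. Dlx6, transcribed toward Dlx5 from the same locus, was at 0 to 118 CPM in the ridge with a median of 20.0 CPM, against 0 to 3.34 CPM outside it, and was higher in the ridge in 8 of 9 libraries. Its antisense partner Dlx6os1 followed with 24 UMIs in ridge cells and 3 UMIs in other ectoderm, and was not among the genes tested.

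Of the ectodermal zinc finger genes, Sp8 was at 249, 162 and 189 CPM in Wt ridge cells, 225, 202 and 120 CPM in E1C8Δ/Δ, and 133, 274 and 210 CPM in E1C5Δ/Δ. Other ectoderm had 23.4 to 98.0 CPM of Sp8, below every ridge value. Sp6 ranged from 64.9 to 190 CPM in the ridge and from 12.0 to 31.4 CPM outside it, so both genes were higher in the ridge in 9 of 9 libraries.
Bhlha9 ran the other way. In other ectoderm it was at 166, 185 and 123 CPM in Wt, 36.0, 163 and 214 CPM in E1C8Δ/Δ, and 116, 198 and 222 CPM in E1C5Δ/Δ. In ridge cells of the same libraries it was at 39.8, 135 and 47.3 CPM, 0, 19.3 and 70.1 CPM, and 22.2, 0 and 72.9 CPM. Each of the 9 libraries had less Bhlha9 in the ridge than outside it, although the ranges over libraries overlapped.
Dlx3, a gene of stratified epithelia and placenta, was at 0 to 63.8 CPM in the ridge and 6.40 to 40.5 CPM outside it, higher in the ridge in 5 libraries and lower in 4. Dync1i1 was at 0 to 30.03 CPM in the ridge and 0 to 3.73 CPM outside it, higher in the ridge in 8 libraries. Its ridge values were under 3 UMIs in Wt replicate 3, E1C5Δ/Δ replicates 1 and 2 and E1C8Δ/Δ replicate 1. In the ridge cells of these libraries 3 UMIs would stand for 33.3 to 206 CPM.

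**Figure D2:**
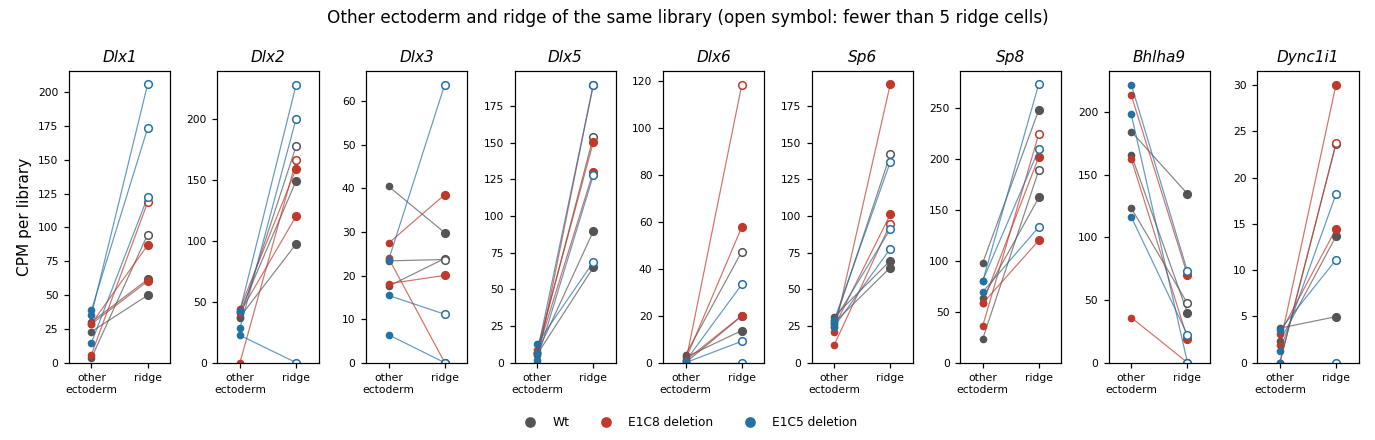
CPM of each gene in other ectoderm (left) and ridge cells (right) of the same library, joined by a line and coloured by genotype, with open symbols for libraries of fewer than 5 ridge cells. Lines rise for Dlx1, Dlx5, Sp6 and Sp8 in all 9 libraries, fall for Bhlha9 in all 9, and go both ways for Dlx3.

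The test between ridge and other ectoderm could use the 4 libraries with at least 5 cells in both gates, Wt replicates 1 and 2 and E1C8Δ/Δ replicates 2 and 3, with the library as a block. Of 7281 genes tested, 6.99% were called at an adjusted p under 0.05 (edgeR, Benjamini-Hochberg), 4.4% higher and 2.6% lower in the ridge. A filter on low counts left 8 of the 9 members. Dlx5 and Dlx6 passed it only through the ridge, where 4 of 4 libraries reached its limit of 12.2 CPM against 0 of 4 outside, so that a gene selected this way had to differ. Without the filter all 9 members were tested and 609 of 16664 genes were called, among them 7 members higher and 1 lower in the ridge. In that fit Dlx6 was at 4.34 (SE 0.63, adjusted p = 1.06e-09) and Dlx5 at 3.94 (SE 0.29, adjusted p = 8.05e-38) on the log2 scale. With the filter, Dlx6 was 21.2-fold higher (log2 fold change 4.40, SE 0.69, adjusted p = 1.14e-06) and Dlx5 16.1-fold higher (4.01, SE 0.30, adjusted p = 1.48e-17). Sp6, Dlx2, Sp8 and Dlx1, which passed the filter in both gates, rose less: Sp6 by 3.62-fold, Dlx2 by 3.33-fold, Sp8 by 2.86-fold and Dlx1 by 2.47-fold, with adjusted p from 9.45e-11 to 6.98e-05. Bhlha9 was 2.17-fold lower in the ridge (-1.12, SE 0.21, adjusted p = 4.85e-05), and lower still without Wt replicate 2 (-2.14, adjusted p = 2.09e-08) and with cells of more than 1000 genes (-2.28, adjusted p = 3.36e-05). The call was lost when the block was left out (adjusted p = 0.0565) and when ridge cells were gated by other ridge genes instead of Fgf8 (-0.23, adjusted p = 0.776). The difference for Dlx3 was 0.29 on the log2 scale (95% interval -0.35 to 0.93, adjusted p = 0.781). Dync1i1 did not pass the filter, and without it its difference was 2.30 (SE 0.65, adjusted p = 0.0150).

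Of 25 tested genes of the ridge signalling network, 17 were higher and 2 lower in the ridge, with a median of 0.93 against -0.01 over all genes, but the list holds Fgf8, which set the gate. It also holds Trp63, a marker of the ectoderm gate, and genes fixed to check the labels: Rspo2, Fgf4, Fgf9, Fgf17, Jag2, Cd44, Wnt7a and En1. Rspo2 (6.11) and the BMP ligand gene Bmp4 (4.56) were far higher, and the receptor gene Notch1 (-1.52) and the ligand gene Wnt3 (-1.49) were lower, all as log2 fold changes. None of the 4 tested paralogues and transcripts of the same loci was called. Of 12 tested neighbours of the members' loci, 3 were called higher: Slc25a13 and Sem1, which lie near Dlx5 and Dlx6, by 1.41 and 0.46 on the log2 scale, and Itga6, near Dlx1 and Dlx2, by 1.16.

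At the level of single cells, Sp8 had a UMI in 50 of 58 ridge cells (86.2%, exact 95% interval 74.6 to 93.9) and in 55.7% of other ectoderm cells. Dlx2 had one in 81.0% against 41.8%, Sp6 in 77.6% against 37.3%, Dlx5 in 74.1% against 13.9%, and Dlx1 in 67.2% against 33.5%. As a ratio the widest contrast was that of Dlx6, with 29 of 58 ridge cells and 2.52% of other ectoderm cells, whereas in percentage points that of Dlx5 was wider. Bhlha9 had a UMI in 37.9% of ridge cells and 68.8% of other ectoderm cells, while Dlx3 had one in 36.2% and 35.5%. Erythroid cells, with a median of 32936 UMIs against 16048.5 in ridge cells and 17040 in other ectoderm, had a UMI of any one member in 0.428% to 0.903% of 2104 cells. Intervals cover counting error only. After thinning each cell to 10000 UMIs, which left 47 ridge and 348 other ectoderm cells, the shares were 34.0% against 1.15% for Dlx6, 59.6% against 6.03% for Dlx5 and 29.8% against 58.3% for Bhlha9. Dlx3 then had a UMI in 3 of 47 ridge cells (6.38%) and 18.4% of other ectoderm cells. These shares were less alike than before thinning, but the ridge share rests on 3 cells pooled over libraries.

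**Figure D3:**
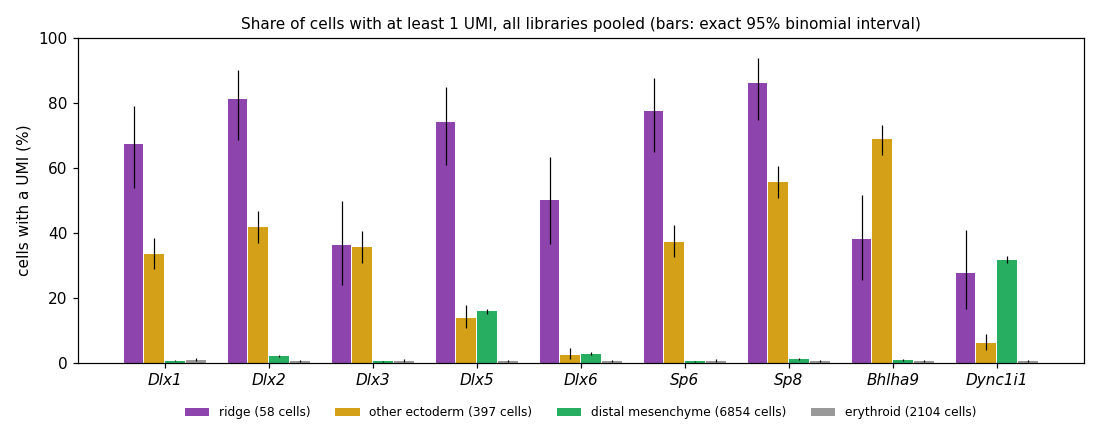
Percent of cells with at least 1 UMI of each gene in ridge, other ectoderm, distal mesenchyme and erythroid cells, all libraries pooled, with exact 95% binomial intervals. Ridge bars are tallest except for Bhlha9 (37.9% against 68.8% in other ectoderm), Dlx3 (about equal) and Dync1i1 (27.6% against 31.8% in distal mesenchyme).

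Ridge cells carried several members at once. The median ridge cell had UMIs of 5 of the 9 genes, and 55 of 58 cells (94.8%) had at least 3, against a median of 3 in other ectoderm, where 41 of 397 cells had none, and a median of 0 in distal mesenchyme. Sp6 and Sp8 shared 42 ridge cells, Dlx1 and Dlx2 shared 34, and Dlx5 and Dlx6 shared 24. All 21 ridge cells with Dlx3 also had Dlx2. For Dlx6 and Bhlha9 the 9 shared cells were 31.0% of the cells with Dlx6 and 40.9% of those with Bhlha9. These counts are descriptive, since deep cells show more genes.

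In the mesenchyme the 9 genes parted into those with a distal level and those near background. The distal gate rests on the score genes Cyp26b1, Sall3, Lmo2 and Wnt5a against Rarb, Irx3, Meis2 and Pkdcc. Dync1i1 was at 10.78 to 21.5 CPM in distal cells, with a median of 16.8 CPM, 1.77 to 5.15 CPM in the middle cells and 0.530 to 2.85 CPM in proximal cells. Dlx5 was at 3.27 to 14.5 CPM in distal cells, 0.413 to 4.58 CPM in middle cells and 0.151 to 2.33 CPM in proximal cells. Distal and proximal values of these 2 genes did not overlap between any libraries, whereas middle cells overlapped proximal cells for both and distal cells for Dlx5. The Dlx5 level of distal cells overlapped that of other ectoderm (0 to 12.8 CPM), and the Dync1i1 level of distal cells overlapped that of the ridge.
Dlx6 was at 0.305 to 1.92 CPM in distal and 0 to 0.752 CPM in proximal cells, and Dlx2 at 0 to 1.42 CPM and 0 to 0.397 CPM. Pooled levels in distal and in erythroid cells were 0.162 and 0.271 CPM for Dlx1, 0.131 and 0.190 CPM for Dlx3, 0.131 and 0.176 CPM for Sp6, and 0.226 and 0.136 CPM for Bhlha9, with counting intervals that overlapped for each gene. Sp8 was at 0.313 CPM (exact Poisson 95% interval 0.248 to 0.390) in distal cells and 0.122 CPM (0.0558 to 0.232) in erythroid cells. These pooled intervals did not overlap, but they cover counting error only and not the spread between libraries. Wt replicate 1 held 32518242 of the 73686700 erythroid UMIs, with 1 UMI of Sp8. Erythroid cells had more Sp8 than distal cells in Wt replicate 3 and in E1C5Δ/Δ replicates 2 and 3, on 1 erythroid UMI each.

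Between distal and proximal mesenchyme, 67.0% of 12944 genes tested were called, so that a call was the rule here. The 4 members that passed the filter on low counts were called higher distally: Dync1i1 by 3.52 (SE 0.14, adjusted p = 2.85e-12), Dlx5 by 2.92 (SE 0.15, adjusted p = 1.07e-10), Dlx2 by 1.93 (SE 0.27) and Dlx6 by 1.37 (SE 0.23) on the log2 scale. Dlx2 reached the limit of 0.376 CPM in 8 of 9 distal and 1 of 9 proximal libraries, and so passed nearly wholly through the gate where it is higher. Without the filter, where all 9 members were tested and 9674 of 22871 genes were called, Dlx2 was at 1.958 (SE 0.27, adjusted p = 4.25e-09) and the 5 members that had not passed were not called, at -0.62 (Dlx1) to 0.63 (Sp8). When distal cells were defined by a UMI of the autopod genes Hoxa13 or Hoxd13 instead, the difference for Dlx6 was -0.076 (adjusted p = 0.730), and those of the other 3 were higher but smaller, at 0.72 for Dync1i1 (adjusted p = 1.84e-07), 0.42 for Dlx5 (adjusted p = 0.00628) and 0.97 for Dlx2 (adjusted p = 0.000347). Network genes went both ways, 7 of 23 tested up (the BMP ligand gene Bmp2 by 2.07, the BMP target Msx1 by 1.78) and 10 down (Rspo2 by -3.98, Fgfr2 by -3.83, En1 by -2.65). Among the relatives, Sp5 was higher by 1.26, Sp7 by 0.70 and Sp1 by 0.12, and Sp4 was lower (-0.38), of 6 tested.

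The distal gate was then divided in each library into its more anterior and its more posterior cells by the score genes Alx4, Boc, Pax1 and Sox6 against Hand2, Osr1, Shh and Prdm1. Dlx5 in anterior cells was at 10.3, 10.2 and 18.1 CPM in Wt, 11.7, 21.7 and 16.4 CPM in E1C8Δ/Δ, and 5.21, 7.53 and 7.09 CPM in E1C5Δ/Δ. In posterior cells it was at 1.80, 2.06 and 2.33 CPM in Wt, 10.2, 7.73 and 8.14 CPM in E1C8Δ/Δ, and 1.34, 2.97 and 2.41 CPM in E1C5Δ/Δ. Each library had more Dlx5 anteriorly, by a wide margin in Wt and by the least in E1C8Δ/Δ replicate 1.
Dync1i1 in anterior cells was at 16.2 to 19.5 CPM in Wt, 21.4 to 23.5 CPM in E1C8Δ/Δ and 15.1 to 22.7 CPM in E1C5Δ/Δ. In posterior cells it was at 5.21, 5.96 and 6.98 CPM in Wt, 21.6, 13.3 and 13.0 CPM in E1C8Δ/Δ, and 8.24, 11.3 and 13.3 CPM in E1C5Δ/Δ. It was higher anteriorly in 8 of 9 libraries, the exception being E1C8Δ/Δ replicate 1.
Over the 9 libraries, 30.5% of 11886 genes were called between anterior and posterior cells, and so were the 3 members tested, all higher anteriorly: Dlx5 by 1.64 (SE 0.14, adjusted p = 1.46e-09), Dlx6 by 1.47 (SE 0.28, adjusted p = 0.000255) and Dync1i1 by 1.00 (SE 0.09, adjusted p = 8.58e-09), as log2 fold changes. The call for Dlx6 rested on the library block (adjusted p = 0.137 without it). Of the network list, 6 of 21 tested genes were higher anteriorly, led by Msx2 (0.87), and 7 were lower, led by Rspo2 (-0.76). Among neighbours of the members, Tac1, close to Dlx5 and Dlx6, was 1.83 higher.

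**Figure D4:**
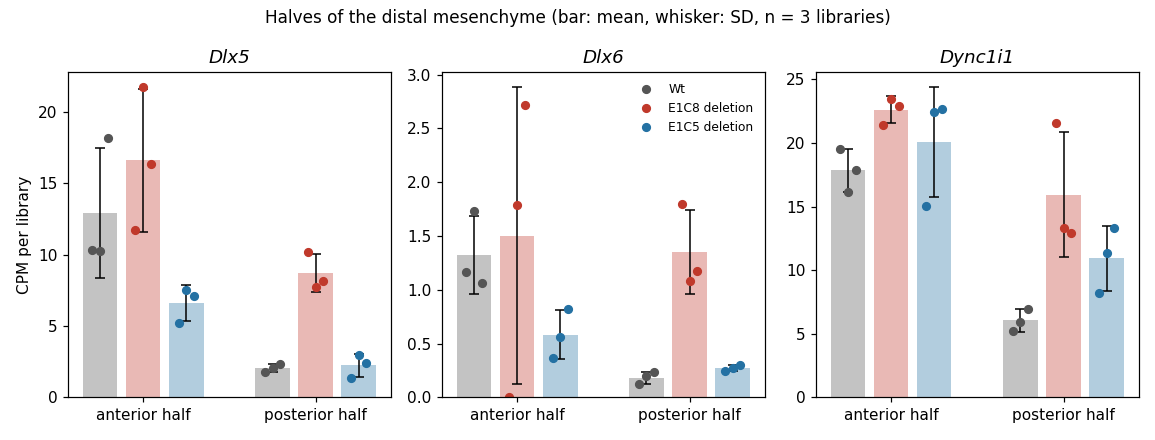
CPM of Dlx5, Dlx6 and Dync1i1 in the anterior and posterior cells of the distal gate, 1 point per library, with the mean as a bar and the SD as a whisker (n = 3 libraries per genotype). In posterior cells the E1C8Δ/Δ libraries stand above all Wt libraries for all 3 genes, and in anterior cells the E1C5Δ/Δ libraries stand below all Wt libraries for Dlx5 and Dlx6.

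The comparison of genotypes asked whether the members changed when Grem1 enhancers were lost. Grem1 itself was at 43.1, 29.8 and 31.97 CPM in the mesenchyme of Wt libraries, 12.0, 11.6 and 14.5 CPM in E1C8Δ/Δ, and 17.8, 16.2 and 25.8 CPM in E1C5Δ/Δ, so all 6 mutant libraries lay below Wt.

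In the ectoderm none of the members tested was called between genotypes. Ridge libraries with at least 5 cells came from Wt (replicates 1 and 2) and E1C8Δ/Δ (replicates 2 and 3) only, so this test sets 2 libraries against 2 of 1 mutant. It called 0 of 3156 genes, or 0.0% (edgeR; 262 at an unadjusted p under 0.05, and 0 by DESeq2). Among its 6 tested members the differences were 0.98 (SE 0.38, adjusted p = 0.551) for Sp6, 0.87 (SE 0.33, adjusted p = 0.537) for Dlx5 and -1.49 (SE 0.69, adjusted p = 0.604) for Bhlha9 on the log2 scale. For Dlx1, Dlx2 and Sp8 they were between -0.23 and 0.38. Dlx3, Dlx6 and Dync1i1 were not among the members tested in the ridge. Bhlha9 moved with single libraries and with the gate. It was called lower in E1C8Δ/Δ when Wt replicate 1 was left out (adjusted p = 0.00398) and when E1C8Δ/Δ replicate 3 was left out (-2.42, adjusted p = 0.0181), and its difference was 0.0019 (adjusted p near 1) without Wt replicate 2. Each of these fits leaves 1 library in an arm, which is assumed to vary like the pair of the other arm. With ridge cells gated by other ridge genes instead of Fgf8 the difference turned to 0.68 (adjusted p near 1). Wt replicate 2, at 135 CPM, was the one ridge library far above the rest.
With all 9 libraries, other ectoderm gave 0 calls among 9218 genes and all ectoderm 0 among 9464 (edgeR; 367 and 377 at an unadjusted p under 0.05, and 7 and 6 genes by DESeq2, none of them a member). For E1C8Δ/Δ alone, 0.0868% of genes in other ectoderm and 0.074% in all ectoderm were called, and between the mutants 0.0108% and 0.0211%, again without a member. The estimates for both mutants against Wt over all ectoderm were -0.44 for Dlx3 (95% interval -1.02 to 0.14), -0.25 for Dlx2 (-0.64 to 0.14), -0.23 for Sp8 (-0.57 to 0.11), -0.21 for Sp6 (-0.62 to 0.20), -0.07 for Dlx5 (-0.76 to 0.61), 0.18 for Dlx1 (-0.34 to 0.70) and -0.01 for Bhlha9 (-0.68 to 0.66). These intervals use a normal quantile and are too narrow for so few libraries. No estimate is given for Dlx6 and Dync1i1, so nothing follows for these genes over all ectoderm. The share of ridge cells among ectoderm cells was 15.5%, 16.5% and 44.4% in Wt, 12.0% and 9.38% in E1C8Δ/Δ replicates 2 and 3 with 3 of 12 cells in replicate 1, and 5.08%, 10.0% and 5.66% in E1C5Δ/Δ. The mutants were 14.3 percentage points lower (two-sided exact permutation p = 0.143, where 3 against 6 libraries can give no p below 0.0119), with -9.45 points (exact permutation p = 0.214) when the ridge gate did not use Fgf8, -4.81 points (exact permutation p = 0.429) without Wt replicate 3, where 4 of 9 ectoderm cells were ridge cells, and -17.1 points (exact permutation p = 0.0357) without E1C8Δ/Δ replicate 1.

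In distal mesenchyme all libraries of at least 1 mutant lay on one side of all Wt libraries for Dlx5, Dlx6, Dync1i1, Dlx2 and Sp8. The share of all genes with such an order is not given here. Dlx5 was at 6.10, 5.92 and 9.70 CPM in Wt, 10.9, 14.5 and 12.1 CPM in E1C8Δ/Δ, and 3.27, 5.21 and 4.63 CPM in E1C5Δ/Δ. All E1C8Δ/Δ libraries lay above all Wt libraries and all E1C5Δ/Δ libraries below them. Dlx6 had the same order at a lower level, with 0.65, 0.92 and 0.62 CPM in Wt, 0.94, 1.42 and 1.92 CPM in E1C8Δ/Δ, and 0.31, 0.41 and 0.55 CPM in E1C5Δ/Δ. For Dlx6 the order of E1C8Δ/Δ and Wt was narrow, at 0.936 CPM in E1C8Δ/Δ replicate 1, from 3 UMIs in 88 cells, against 0.922 CPM in Wt replicate 2. Dync1i1 was at 12.4, 10.78 and 12.1 CPM in Wt, 21.5, 18.2 and 17.8 CPM in E1C8Δ/Δ, and 11.6, 16.8 and 17.7 CPM in E1C5Δ/Δ, so that only the E1C8Δ/Δ libraries were clear of Wt. Dlx2 was at 0.43, 0.51 and 0 CPM in Wt, 0.62, 1.42 and 0.81 CPM in E1C8Δ/Δ, and 0.86, 0.55 and 0.55 CPM in E1C5Δ/Δ. Both mutants thus lay above Wt for Dlx2, on 2 UMIs in E1C8Δ/Δ replicate 1. Sp8 was at 0.34, 0.55 and 0.37 CPM in Wt and 0.12, 0.07 and 0.21 CPM in E1C5Δ/Δ, while E1C8Δ/Δ overlapped Wt.
For both mutants against Wt, 2.62% of 13284 genes were called and 1 of 5 members tested, Dync1i1, 1.46-fold higher (log2 fold change 0.55, SE 0.12, adjusted p = 0.0357). That call was lost in 12 of 20 alternatives, with adjusted p up to 0.154. The difference for Dlx5 was 0.12 (SE 0.18, adjusted p = 0.753), with the mutants on opposite sides of Wt.
The E1C8Δ/Δ libraries alone had 1.86-fold more Dlx5 (0.90, SE 0.20, adjusted p = 0.0150) and 1.61-fold more Dync1i1 (0.68, SE 0.14, adjusted p = 0.0109) than Wt, where 11.5% of genes were called. The Dlx5 call was lost in 5 of 20 alternatives, 4 of them without 1 library (Wt replicate 1 or 2, E1C8Δ/Δ replicate 2 or 3), with adjusted p up to 0.0867, and the Dync1i1 call in none. Dlx6 (1.04, SE 0.32) and Dlx2 (1.35, SE 0.48) missed the threshold, at adjusted p = 0.0568 and 0.0852. In E1C5Δ/Δ, where 1.13% of genes were called, no member was: Dlx5 was at -0.65 (SE 0.20, adjusted p = 0.202, and 0.0346 without the filter on low counts), Dlx6 at -0.80 (SE 0.35, adjusted p = 0.427) and Sp8 at -1.47 (SE 0.45, adjusted p = 0.189).
The mutants differed from each other, with 10.2% of genes called between them. Depth per cell also differed between them, as given below. Dlx5 was 2.93-fold higher in E1C8Δ/Δ than in E1C5Δ/Δ (1.55, SE 0.20, adjusted p = 0.00265), and Dlx6 3.58-fold higher (1.84, SE 0.34, adjusted p = 0.00773). Over all mesenchymal cells the values were 1.62 (SE 0.27, adjusted p = 0.00630) and 1.87 (SE 0.28, adjusted p = 0.00402), and no member was called for both mutants against Wt, where 1.92% of 16093 genes were. No member was called there for E1C8Δ/Δ (9.41% of genes) or E1C5Δ/Δ (1.26%) alone either, while 1716 of 16093 genes were called between the mutants.

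**Figure D5:**
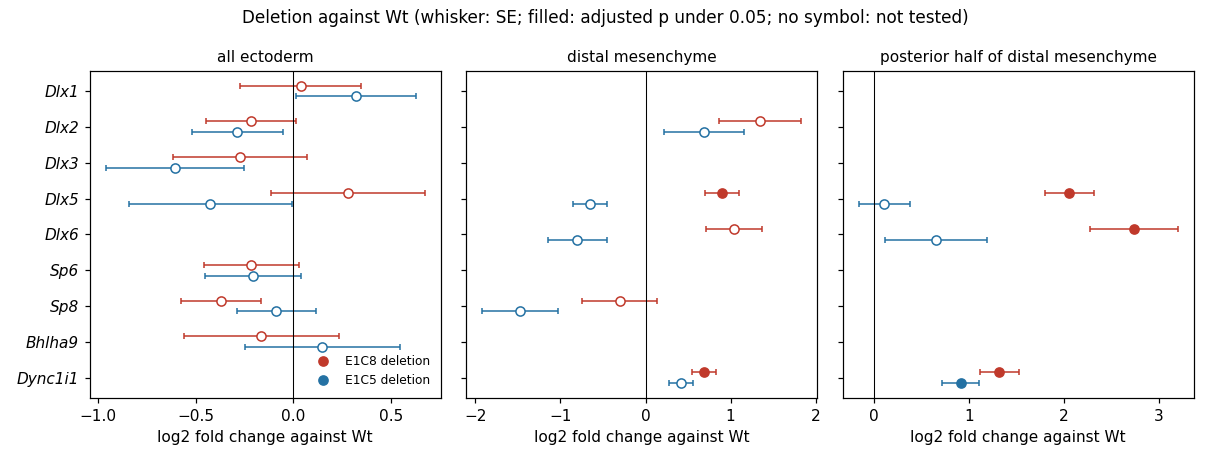
Log2 fold change of each gene in E1C8Δ/Δ and E1C5Δ/Δ against Wt in all ectoderm, distal mesenchyme and the posterior cells of the distal gate, with SE as whiskers and filled symbols for an adjusted p under 0.05. No symbol is filled in ectoderm, and Dlx5, Dlx6 and Dync1i1 are all filled for E1C8Δ/Δ in posterior cells. The fit in posterior cells was chosen after seeing the data.

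Both sets of distal cells were then compared between genotypes, in fits chosen after their values had been seen. Their adjusted p-values are thus not those of a preset test. In posterior cells, 9.96% of 12287 genes were called for E1C8Δ/Δ against Wt. Dlx5 was 4.15-fold higher (2.05, SE 0.26, adjusted p = 0.000942) and Dync1i1 2.49-fold higher (1.32, SE 0.21, adjusted p = 0.00333), and both calls held in all 18 alternatives run, with adjusted p up to 0.0226. Dlx6 was 6.65-fold higher (2.73, SE 0.46, adjusted p = 0.00432), but it passed the filter on low counts only through E1C8Δ/Δ, where 3 of 3 libraries reached the limit of 0.651 CPM against 0 of 3 in Wt and 0 of 3 in E1C5Δ/Δ. Without the filter, where all 9 members were tested and 1766 of 20417 genes were called, Dlx6 was at 2.72 (SE 0.63, adjusted p = 0.000654), and Dlx2, which did not pass the filter, was at 2.17 (SE 0.57, adjusted p = 0.00365). Dlx6 gave no adjusted p by DESeq2 and no value when cells were thinned, and its call held in the other 16 alternatives, with adjusted p up to 0.0319. Dlx6 was at 0.12, 0.19 and 0.23 CPM in Wt posterior cells, 1.80, 1.08 and 1.17 CPM in E1C8Δ/Δ, and 0.24, 0.27 and 0.30 CPM in E1C5Δ/Δ. These values rest on few molecules, namely 2, 5 and 1 UMIs in Wt, 3, 15 and 18 in E1C8Δ/Δ, and 4, 2 and 9 in E1C5Δ/Δ.
In E1C5Δ/Δ, where 1.09% of genes were called in posterior cells, Dync1i1 was 1.88-fold higher (0.91, SE 0.20, adjusted p = 0.0439), a call that was lost in 11 of 18 alternatives. Dlx5 was at 0.11 (SE 0.27, adjusted p = 0.978) and Dlx6 at 0.65 (SE 0.53, adjusted p = 0.832). For both mutants together, 2.86% of genes were called, and Dync1i1 was 2.16-fold higher (1.11, SE 0.18, adjusted p = 0.00616) and Dlx5 2.11-fold higher (1.08, SE 0.23, adjusted p = 0.0274), the latter lost in 9 of 18 alternatives.
In anterior cells, where 1.2% of 12233 genes were called for both mutants, 8.44% for E1C8Δ/Δ and 0.646% for E1C5Δ/Δ, none of the 4 members tested was called for either mutant. Dlx5 was at 0.57 (SE 0.23, adjusted p = 0.129) in E1C8Δ/Δ and at -0.85 (SE 0.23, adjusted p = 0.162) in E1C5Δ/Δ. Without the filter on low counts both were called, with adjusted p = 0.0231 and 0.000250. Between the mutants, Dlx5 differed by 1.42 (SE 0.23, adjusted p = 0.00449) in anterior cells, where 7.9% of genes were called, and by 1.95 (SE 0.25, adjusted p = 0.00237) in posterior cells, where 7.56% were.
The difference between anterior and posterior cells itself changed with genotype, in a fit that was also chosen after seeing the values. For both mutants against Wt, where 0.442% of 12676 genes were called, it shrank for Dync1i1 by 0.81 (-0.81, SE 0.13, adjusted p = 0.00144) and for Dlx5 (-1.07, SE 0.21, adjusted p = 0.00792) on the log2 scale. These calls were lost when cells were thinned to 10000 UMIs (-0.78 for Dync1i1 and -1.002 for Dlx5, adjusted p = 0.571 and 0.718), where the estimates moved little and their SE rose to 0.26 and 0.40, and were also lost for Dync1i1 without Wt replicate 1 (adjusted p = 0.0538) and for Dlx5 without E1C5Δ/Δ replicate 3 (adjusted p = 0.0570). In E1C8Δ/Δ alone, where 0.213% of genes were called, it was -0.85 for Dync1i1 (SE 0.16, adjusted p = 0.00812) and -1.29 for Dlx5 (SE 0.22, adjusted p = 0.00442). In E1C5Δ/Δ, where 0.434% of genes were called, it was -0.76 for Dync1i1 (SE 0.15, adjusted p = 0.00804). For Dlx5 the estimate in E1C5Δ/Δ was -0.85 (SE 0.25, adjusted p = 0.214, and 0.0368 without the filter on low counts). For Dlx6 it was -2.18 (SE 0.63, adjusted p = 0.325) in E1C8Δ/Δ.

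Several measured quantities moved with these differences. Cells that passed the filters, before doublets were removed, had a median per library of 18179 to 27721 UMIs in E1C8Δ/Δ. That median was 32797.5 to 49873 UMIs in Wt and 31755 to 43886.5 UMIs in E1C5Δ/Δ, so that every E1C8Δ/Δ library was shallower per cell than every other library. In posterior cells the 4 posterior score genes summed to 298 to 328 CPM in Wt, 188 to 307 CPM in E1C8Δ/Δ, which overlaps Wt, and 168 to 213 CPM in E1C5Δ/Δ. Of these genes Hand2 was at 250 to 288 CPM in Wt, 162 to 231 CPM in E1C8Δ/Δ and 157 to 192 CPM in E1C5Δ/Δ, while Osr1, Shh and Prdm1 overlapped between Wt and E1C8Δ/Δ. The 4 anterior score genes summed to 15.3 to 19.3 CPM in posterior cells of Wt, 12.8 to 17.99 CPM in E1C8Δ/Δ and 10.6 to 17.7 CPM in E1C5Δ/Δ. The anterior and posterior score genes divided the distal cells, so their sums are partly set by the gate and cannot show how anterior mutant posterior cells were. The 4 distal score genes, which with the proximal ones set the distal gate, summed in posterior cells to 632 to 800 CPM in Wt, 464 to 594 CPM in E1C8Δ/Δ and 429 to 578 CPM in E1C5Δ/Δ. Fgf8, the gene of the ridge gate, in distal mesenchymal cells was at 0.400 to 1.05 CPM in Wt, 0.787 to 3.12 CPM in E1C8Δ/Δ and 0.142 to 0.274 CPM in E1C5Δ/Δ, higher in E1C8Δ/Δ than in E1C5Δ/Δ by 3.02 on the log2 scale (adjusted p = 0.00818). The 14 epithelial markers summed to 6.05 to 7.01 CPM in Wt posterior cells, 8.40 to 10.55 CPM in E1C8Δ/Δ and 4.18 to 6.34 CPM in E1C5Δ/Δ, with none of them at 0. Dlx5 in muscle progenitors was at 0 to 0.435 CPM in Wt, 0.697 to 1.67 CPM in E1C8Δ/Δ and 0 to 0.120 CPM in E1C5Δ/Δ. With embryo sex as a covariate, the posterior calls for both mutants were lost for Dync1i1 (1.08, adjusted p = 0.0779) and Dlx5 (1.27, adjusted p = 0.108), while those for E1C8Δ/Δ alone held. The part of these quantities in the differences was not tested.
Other genes of the network moved in the same cells: in the posterior cells of both mutants 6 of 22 tested were higher and 1 was lower, with the BMP targets Msx2 (1.82) and Msx1 (1.07) up and Notch1 (-1.10) down on the log2 scale, and a median over the list of -0.001 against -0.008 over all genes. None of the 6 tested relatives and none of the 14 tested neighbours of the members was called for both mutants.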

How the data were processed

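Forelimb buds of 9 embryos were profiled by 10x Genomics 3′ single-cell RNA-seq. The deposited matrices hold raw UMI counts per gene and barcode, which the authors made with Cell Ranger 6.0.1 on mm10. The submitters' processing notes also name Seurat. No cell annotation was used here. Total counts per library were 26620760 to 500559729. A cell was kept if over 2500 genes were detected, its total was below 200000 UMIs and its mitochondrial share below 10%, and doublets were called with artificial doublets at an assumed 0.8% per 1000 barcodes and removed, which left 592 to 8699 cells per library. Libraries shared at most 28 barcodes. Cells were gated by marker genes that include none of the 9 genes. The thresholds of the gates were set after the marker distributions were seen. The genes and lists followed were chosen with earlier results of these data known.

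UMIs were summed per library and gate and tested with the quasi-likelihood test of edgeR 4.0.16 in R 4.3.3 with Benjamini-Hochberg adjustment over all genes tested. Only gates with at least 5 cells in a library entered, and X-linked and Y-linked genes were not tested. Contrasts between gates had the library as a block. Genotype contrasts set the mean of both mutants, each mutant, and their difference. The fits of genotype in the anterior and the posterior cells of the distal gate, and of the change in their difference, were chosen after seeing the data. DESeq2 1.42.0, other filters, gates and depths, embryo sex read from Xist and Y-linked genes, a replicate block, and leaving out each library were alternatives. The share of ridge cells was tested by exact permutation. The fits were tested on simulated data. Replicates are separate embryos. The rule for named genes was all 9 genes with the genes of the fixed lists of largest change. Intervals of cell shares cover counting error only. Those of log2 fold changes use the SE of the fits over libraries with a normal quantile, and are too narrow for so few libraries. Some items of the likeness between genes are not reported here.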

Additional observations from a re-analysis of the deposited data

Results flagged for a closer look

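The mutants differed from each other in the test of the difference itself. E1C8Δ/Δ minus E1C5Δ/Δ on the log2 scale was 1.84 for Dlx6 and 1.55 for Dlx5 in distal mesenchyme, and 1.71 and 1.42 in its anterior cells. The fits in its anterior and posterior cells were chosen after seeing the data. The anterior call of Dlx6 was lost in 8 of 16 alternatives (1.21 to 2.30, adjusted p up to 0.297), while that of Dlx5 was kept in all 18. In its posterior cells the differences were 2.08 for Dlx6 and 1.95 for Dlx5. There Dlx6 passed the filter on low counts only through E1C8Δ/Δ; without the filter it was at 2.06 (adjusted p = 0.00700), and its call was lost in 2 of 16 alternatives, without E1C8Δ/Δ replicate 2 or 3. Over all mesenchyme they were 1.87 for Dlx6, 1.62 for Dlx5 and 1.39 for Dlx3, and the last was called in 9 of 16 alternatives only and rests on levels of at most 0.232 CPM per library.

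The contrast of anterior with posterior distal cells was smaller for some members in mutants than in Wt, in a fit chosen after seeing the data. For both mutants the change was -0.81 for Dync1i1 and -1.07 for Dlx5. For E1C8Δ/Δ it was -0.85 and -1.29, and for E1C5Δ/Δ it was -0.76 for Dync1i1, while -0.85 for Dlx5 did not pass (adjusted p = 0.214). Each of these calls was lost when cells were thinned to 10000 UMIs, where the values were -0.78 and -1.002 for both mutants, -0.93 and -1.06 for E1C8Δ/Δ and -0.62 for E1C5Δ/Δ, with larger SEs. Without E1C8Δ/Δ replicate 3 those for E1C8Δ/Δ were lost (-0.92, adjusted p = 0.0560, and -1.16, adjusted p = 0.134), and without Wt replicate 1 those for Dync1i1 were lost in E1C8Δ/Δ (-0.68, adjusted p = 0.126) and E1C5Δ/Δ (-0.59, adjusted p = 0.115), the latter also without E1C5Δ/Δ replicate 3 (-0.69, adjusted p = 0.220) and by DESeq2 (-0.74, adjusted p = 0.0979).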

How the results depend on the processing

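Of the calls of single genes, 538 of the values under an alternative kept their direction and their side of the threshold, 73 lost the call, and 1 reversed: Dlx6 between distal and proximal mesenchyme was at -0.076 with the Hoxa13 or Hoxd13 gate. The number of members called fell between distal and proximal mesenchyme from 4 to 2 when cells were thinned and to 2 with the distal 10%, where fewer members were tested. In distal mesenchyme of both mutants it was 1, and it was 0 with cells of more than 1000 genes, 0 when thinned, 0 with the replicate block, 0 with embryo sex as a covariate, 0 with the Hoxa13 or Hoxd13 gate, and 0 to 1 when 1 library was left out. In posterior cells it was 2, and it was 1 with cells of more than 1000 genes, 0 when thinned, 1 with the replicate block, 0 with sex, and 1 to 2 without 1 library. For the change of the difference between anterior and posterior cells it was 2, and it was 0 when thinned and 1 to 2 without 1 library. In the ridge it was 0 to 1 without 1 library. The share of ridge cells differed by -19.3 to -4.81 points without 1 library. The causes were not tested.

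Counts of genes moved too. Ridge against other ectoderm gave 509 genes, and 309 by DESeq2, 244 with cells of more than 1000 genes, 234 when thinned, 304 without the library block and 244 with the gate without Fgf8. Distal against proximal gave 8676, and 5579 without the block. Anterior against posterior gave 3622, and 1823 when thinned and 351 without the block. Distal mesenchyme of both mutants gave 348, and 563 by DESeq2, 798 without a filter, 213 with more than 1000 genes, 147 when thinned and 34 with sex. All mesenchyme gave 309, and 833, 183, 129 and 4 by DESeq2, with more than 1000 genes, when thinned and with sex. Posterior cells gave 352, and 903 without a filter, 140 when thinned and 39 with sex. Anterior cells gave 147, and 247 by DESeq2, 671 without a filter, 51 with more than 1000 genes, 69 when thinned and 10 with sex. The change of the difference gave 56, and 27 by DESeq2, 141 without a filter and 18 when thinned. The ectodermal genotype fits, at 0, gave up to 45 genes without a filter, and the ridge fit 36.

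Replicate numbers did not pair the samples: correlations of same-numbered deviations were -0.323 to 0.143. Those of differently numbered libraries were -0.293 to 0.481, highest between Wt replicate 1 and E1C5Δ/Δ replicate 3. The replicate block thus need not join the libraries most alike, and what such libraries share was not tested. With the replicate block, distal mesenchyme of both mutants gave 147 genes, posterior cells 187, anterior cells 75 and all mesenchyme 80. The block could not be fitted in the ridge. The minimum of 5 cells kept E1C5Δ/Δ out of the ridge fit. With every library that held a ridge cell, an alternative chosen after seeing the data, 0 of 1724 genes were called for E1C5Δ/Δ against Wt (edgeR; 71 at an unadjusted p under 0.05, DESeq2 not run), and the 5 members tested were at -0.11 (Sp8) to 1.26 (Dlx1, adjusted p = 0.953).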

Other observations

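Over 68 sums of a gate in a library, the genes whose log2 levels ran most like a member's were mostly epithelial, a description over gates that share libraries and depth. Pearson's r was 0.975 between Dlx1 and Sp8, 0.963 between Dlx2 and Adamts18, 0.982 between Sp6 and Fxyd3, 0.986 between Sp8 and Trp63 and 0.986 between Bhlha9 and Tmem54. Fxyd3 and Trp63 are markers of the ectoderm gate. Dlx5 ran most like Ccdc3 (0.845) and Dlx6 (0.841), and Dync1i1 most like Cyp26b1 (0.892), which is a gene of the distal score.

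Sp8 was at 0.483 to 1.67 CPM in muscle progenitors of the 9 libraries, with a median of 0.814 CPM, against a pooled 0.122 CPM in erythroid cells. Both ends of the muscle range rest on 2 UMIs. By library, erythroid cells were at 0 to 0.776 CPM, so the ranges overlapped. In Wt replicate 3 the erythroid value (0.776 CPM, 1 UMI) lay above that of muscle progenitors (0.613 CPM, 2 UMIs).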
